A study of Mus musculus with 12 samples.

Results

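The level difference between the lumbar and the brachial spinal cord was examined in 6 of the 12 bulk RNA-seq libraries of the study, the 3 brachial and the 3 lumbar libraries of E12.5 mouse embryos heterozygous for Isl2 (Isl2 +/-). Of the 45777 genes listed, the 14813 with a mean TPM (a length-corrected share of the transcripts of a library) of 1 or more over these 6 libraries were compared after median-of-ratios rescaling, which sets the typical gene to the same value in each library. Every library came from ventral cord trimmed around Hb9::GFP, a transgene that the Hb9 (Mnx1) promoter drives in motor neurons (MNs). The tissue was not sorted, so each value averages over MNs, interneurons, progenitors, glia, vessels and any tissue left attached, and fewer cells of a type cannot be told apart from less RNA per cell. Both groups carry 1 deleted copy of Isl2, so no wild-type library enters the comparison. The other 6 libraries, 3 brachial and 3 lumbar from Isl2 knockout (KO) embryos, share no library with them and were used to look at the same level difference again and to test whether it differed between the genotypes.

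As background, the brachial cord holds the MNs of the forelimb and the lumbar cord those of the hindlimb, and the Hox genes give each level its identity. Neurogenesis in the spinal cord proceeds from rostral to caudal, so that brachial neurons are born before lumbar ones of the same class. At both limb levels MNs settle into a medial column that supplies axial muscle and a lateral column that supplies the limb, which divides further into pools, each supplying 1 muscle. Pools differ in their transcription factors, cadherins, and receptors for factors released by the limb.

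Each brachial library held 5.686 to 6.177 Gb of aligned bases and each lumbar library 6.088 to 6.638 Gb, and 22983 to 24191 genes had values above 0. No read counts are given in the tables, so the counting error of a single value is not known. Y-linked genes were expressed in brachial replicates 1 and 2 and in lumbar replicate 2, so male embryos gave 2 of the 3 brachial and 1 of the 3 lumbar libraries. The first principal component held 43.2% of the variance and separated the levels, and the second held 24.0% and set replicate 3 of both levels (-28.06 brachial, -22.11 lumbar) apart from the other 4 libraries (2.57 to 18.91). Mnx1, the gene whose promoter drives the reporter, stood at 43.1, 39.8 and 40 TPM in the brachial and 64.7, 40.8 and 48.5 TPM in the lumbar libraries. Isl2 itself stood at 8.42, 8 and 9.4 TPM in the brachial and 9.93, 8.14 and 9.09 TPM in the lumbar libraries, and neither gene passed the test (adjusted p of 0.316 and 0.764).

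Across all genes, limma called 523 (adjusted p below 0.05 by the Benjamini-Hochberg method). Higher lumbar values were called for 172 genes, 1.16% of those tested, and higher brachial values for 351 genes, 2.37%. Of the 32 Hox genes tested, 11 were higher in lumbar and 8 in brachial libraries. They are set aside here, which leaves 161 genes higher in lumbar and 343 higher in brachial cord. Most of these differences were modest, since the median log2 difference was 0.70 among the former and -0.68 among the latter, and only 38 and 94 of them reached a log2 difference of 1. Over all tested genes the median log2 difference was 0.02 and 54.3% of the values were above 0. All 3 lumbar libraries lay above all 3 brachial ones for 13.4% of the genes tested, and below them for 13.3%. The number of calls depended on single libraries: it was 259, 86 and 191 without brachial replicate 1, 2 and 3, and 481, 229 and 208 without lumbar replicate 1, 2 and 3. With embryo sex as a term, 274 genes were called. Of the 504 called genes outside the Hox genes, 67 stayed called in all 6 of the fits that left out 1 library, 23 higher in lumbar and 44 higher in brachial cord.

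The genes that led the lumbar side encode a neuropeptide, a peptide hormone, adhesion and signaling proteins, and a growth factor receptor. Cartpt, the precursor of the CART neuropeptide (chr13:99898483-99910179, GRCm38), measured 16.7, 17.2 and 18 TPM in the brachial and 57.7, 50.8 and 56.3 TPM in the lumbar libraries. The lowest lumbar value was far above the highest brachial one, a 3.16-fold difference on the scale of TPM plus 0.1 (log2 difference 1.66 ± 0.07 SE, adjusted p = 3.61e-05). Cabp7, a neuronal calcium-binding protein, measured 8.13, 7.84 and 8.11 TPM in the brachial and 25.4, 20.3 and 25.8 TPM in the lumbar libraries (2.93-fold, adjusted p = 0.000361). Uts2, the precursor of the peptide urotensin 2, stayed below 1 TPM in the brachial libraries (0.461, 0.386 and 0.677 TPM) and stood at 3.21, 3.18 and 4.3 TPM in the lumbar ones (6.09-fold, adjusted p = 0.00332). Met, the receptor for hepatocyte growth factor, a survival and guidance factor for limb MNs, measured 12.4 to 12.9 TPM in the brachial and 23.4, 20.6 and 20.6 TPM in the lumbar libraries (1.7-fold, adjusted p = 0.00394). The adhesion molecule Chl1, a relative of L1, was 1.58-fold higher in lumbar cord and the most abundant of the leading genes after Grb10, at 75.8 to 83.7 TPM against 125 to 128 TPM. Grb10, an imprinted adaptor that restrains insulin and IGF receptor signaling, was 1.63-fold higher (89.3 to 104 against 153 to 166 TPM).

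Npr3, the clearance receptor for natriuretic peptides, was 2.32-fold higher in lumbar cord, Kcnab1, an auxiliary subunit of potassium channels, 2.24-fold, the ubiquitin ligase Pdzrn3 1.9-fold, and the scaffold Magi3 1.44-fold. Among the 5 largest differences at a mean of 5 TPM or more were also Ccdc182 (2.84-fold) and Neurod4, a proneural transcription factor (2.37-fold, adjusted p = 0.0333). Neurod4 was no longer called without brachial replicate 1 or 2 or lumbar replicate 1 or 3. The other 11 genes named here as leading the lumbar side were called in each of the 6 fits that left out 1 library.

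On the brachial side, the leading genes encode a peptide, an intermediate filament, membrane receptors, and proteins of transport and lipid metabolism. Lypd1, a Ly6 protein that binds nicotinic receptors (chr1:125867622-125913175), had the smallest p of the protein-coding genes on this side, at 29.8, 29 and 33.4 TPM in the brachial and 9.58, 10.6 and 9.59 TPM in the lumbar libraries (3.07-fold higher in brachial, log2 difference -1.62 ± 0.08 SE, adjusted p = 0.000101). Grp, the precursor of gastrin-releasing peptide, measured 12.1, 13.1 and 10.8 TPM in the brachial and 0.752, 1.43 and 1.08 TPM in the lumbar libraries, a 10.5-fold difference (adjusted p = 0.000314). Prph, which encodes peripherin, the intermediate filament of neurons with axons in the periphery (chr15:99053579-99058978), measured 308, 301 and 287 TPM in the brachial and 73.8, 62.7 and 42.6 TPM in the lumbar libraries, a 5.13-fold difference (adjusted p = 0.000675). The groups did not overlap for any of these genes. Agtr2, the type 2 receptor for angiotensin II, measured 4.14, 4.8 and 5.16 TPM in the brachial and 0.87, 0.947 and 0.926 TPM in the lumbar libraries (4.71-fold, adjusted p = 0.000631). Pla2g7, which degrades platelet-activating factor, was 4.54-fold higher in brachial cord (14.8 to 18.1 against 2.98 to 4.36 TPM).

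Dync1i1, an intermediate chain of the dynein motor that drives retrograde axonal transport, was 2.52-fold higher in brachial cord, Nwd2 2.1-fold, the galectin Lgals1 1.9-fold, the neuronal protein Brinp1 1.77-fold, and Ppp1r14c, an inhibitor of protein phosphatase 1, 1.75-fold. Aldoc, the brain form of aldolase, was 3.46-fold higher (30.1 to 43.3 against 8.1 to 11.6 TPM), and Arhgap36 4.41-fold (22.7 to 28.8 against 3.59 to 9.02 TPM). Each of these genes was called in all 6 of the fits that left out 1 library except Arhgap36, which was lost without brachial replicate 2 and had an adjusted p of 0.011 in the full fit. The plot of the 20 leading genes shows the separation of the groups.

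**Figure D1:**
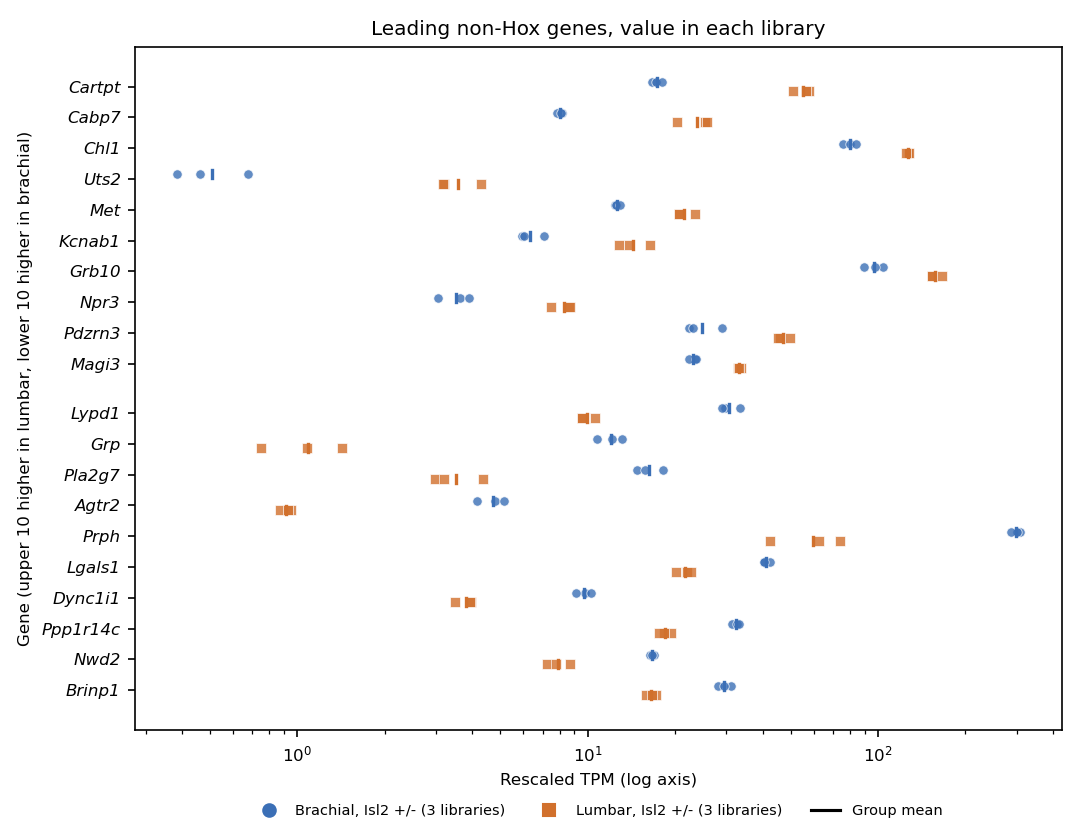
Rescaled TPM (log axis) of the 10 non-Hox protein-coding genes with the smallest p on each side, with 1 point per library (circles brachial, squares lumbar) and a short line at the group mean. The groups do not overlap for any of the 20 genes, and the gap is widest for Grp (10.5-fold) and Uts2 (6.09-fold).

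All calls among genes of the cell cycle were higher in lumbar cord. Of the 45 tested, 9 were called, all of them higher in lumbar libraries (against 1.16% of all genes), and none higher in brachial ones. All 45 log2 differences were above 0, from 0.31 to 0.80 with a median of 0.65, and the groups were separate with lumbar above for 36 of them (against 13.4% of all genes). The 9 were Rrm2 and Tyms, enzymes of nucleotide supply, Plk1, a mitotic kinase, Cenpa and Cenpf, kinetochore proteins, Nusap1, a spindle protein, Mcm2, a subunit of the replicative helicase, Uhrf1, which maintains DNA methylation at replication, and the proliferation marker Mki67. Mki67 measured 18.4, 13.2 and 12.8 TPM in the brachial and 21.5, 27.1 and 23.8 TPM in the lumbar libraries (1.64-fold, adjusted p = 0.0462). Plk1 measured 5.13, 4.29 and 4.87 TPM against 7.28, 7.9 and 7.61 TPM (1.59-fold, adjusted p = 0.0214), with no overlap. Top2a, the topoisomerase of dividing cells, was at 72.3, 45.8 and 63.2 TPM against 82.6, 112 and 114 TPM and missed the threshold (adjusted p = 0.0625). The calls were the part of this result that moved most: leaving out brachial replicate 1, 2 or 3 gave 7, 0 and 0 calls and leaving out lumbar replicate 1, 2 or 3 gave 12, 0 and 0, while the median stayed between 0.48 and 0.75. Over the whole list, the mean log2 deviation of a library was -0.08, -0.56 and -0.24 in brachial replicates 1 to 3 and 0.07, 0.39 and 0.42 in lumbar replicates 1 to 3, so brachial replicate 1 and lumbar replicate 1 lay closest to each other. With embryo sex as a term 1 of the 45 was called, and with protein-coding genes alone in the fit 22.

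The promoters of the cell cycle list were read from RefSeq (GRCm38.p6), from 250 bases before to 50 after the start, to describe the list. Short motifs known from cell cycle promoters were searched on both strands: the CCAAT box (CCAAT), the cell cycle homology region CHR (TTTGAA) and an E2F site (TTTCGCGC). Of the 36 list members with a promoter entry, 27 held CCAAT (75%, against 41.1% of all 27025 genes with an entry), 14 held TTTGAA (38.9%, against 20.2%) and 5 held TTTCGCGC (13.9%, against 0.37%). Among the 9 called genes these numbers were 7, 5 and 1. Over the 10600 tested genes with an entry the shares were 43.8%, 14% and 0.82%. None of these motifs contains another, and a match is a description of the sequence and not a measured binding site. The motifs were chosen as known from cell cycle promoters, so their shares in a cell cycle list say nothing about the level difference. The bases before the start of Plk1 (chr7:122159185-122159434) and Cenpa (chr5:30666636-30666885), both on the forward strand, are printed as examples with 1 and 2 CCAAT boxes, with CCAAT or its reverse complement in capitals.
Plk1: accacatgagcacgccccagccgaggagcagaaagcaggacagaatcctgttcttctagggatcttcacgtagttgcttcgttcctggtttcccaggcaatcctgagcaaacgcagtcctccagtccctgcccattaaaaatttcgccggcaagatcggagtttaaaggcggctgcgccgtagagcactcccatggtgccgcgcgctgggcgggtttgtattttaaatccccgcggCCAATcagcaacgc
Cenpa: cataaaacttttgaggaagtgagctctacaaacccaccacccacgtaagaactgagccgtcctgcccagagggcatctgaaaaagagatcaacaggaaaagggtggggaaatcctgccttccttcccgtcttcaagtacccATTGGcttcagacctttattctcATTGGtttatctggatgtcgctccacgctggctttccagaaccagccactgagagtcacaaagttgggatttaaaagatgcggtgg

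General progenitor genes held 1 call. Of the 28 neural progenitor genes tested none was called higher in lumbar cord and 1 in brachial cord (against 1.16% and 2.37% of all genes). The 1 call was Slc1a3, the glial glutamate transporter GLAST (95.8, 111 and 102 against 76.6, 81.5 and 67.2 TPM, adjusted p = 0.039). It was lost whichever library was left out. The median log2 difference of the list was 0.20, against 0.02 over all genes. Sox2, which maintains the progenitor state, was at 66.2 to 81.1 TPM in brachial and 81.5 to 92.9 TPM in lumbar libraries (adjusted p = 0.176), and the intermediate filament Nes at 136 to 180 and 187 to 226 TPM (adjusted p = 0.172).

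The list of proneural and neurogenic genes, which act as neuronal differentiation starts, had 4 of 27 called higher in lumbar cord (against 1.16% of all genes) and none in brachial cord, with a median of 0.26. They were Rgmb, a BMP co-receptor (58.8 to 64.5 against 84.6 to 88.3 TPM, adjusted p = 0.00764), the bHLH factors Neurod4 and Neurog3, and the Notch ligand Dll1 (35.6 to 43.3 against 49 to 55.2 TPM, adjusted p = 0.0485). Neurog3 measured 6.16, 3.97 and 6.45 TPM in brachial and 11.6, 9.11 and 13.3 TPM in lumbar libraries (2.06-fold, adjusted p = 0.0422). Rgmb was called whichever library was left out, and the 4 calls became 2, 1, 2, 1, 3 and 1 without brachial replicate 1, 2, 3 and lumbar replicate 1, 2, 3. The differences of the list ran from -1.97 to 1.24. The groups were separate with lumbar above for 12 genes and with brachial above for 2 (against 13.4% and 13.3% of all genes).

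Of the 20 gliogenic genes tested, 1 was higher in lumbar cord and 2 were higher in brachial cord (against 1.16% and 2.37% of all genes), with 8 of the 20 differences above 0. The latter were Aldh1l1, the folate enzyme used as an astrocyte marker, and Hopx, a homeodomain protein of radial glia. Aldh1l1 measured 20, 28.7 and 27.6 TPM in the brachial and 11.5, 11.9 and 10.6 TPM in the lumbar libraries, and was called whichever library was left out (2.21-fold, adjusted p = 0.00785). Hopx measured 83, 83 and 81.4 TPM against 44, 58.1 and 37.3 TPM (1.8-fold, adjusted p = 0.0239), and was lost without lumbar replicate 1 or any of the brachial replicates. The 1 member higher in lumbar cord, Brca1, is a DNA repair gene of dividing cells that the list also held (4.53 to 5.99 against 7.52 to 9.53 TPM, lost without lumbar replicate 2 or 3 or any 1 brachial replicate), and the median of the list was -0.32. Fabp7, an abundant fatty acid binding protein of radial glia, was at 1956 to 2242 TPM in brachial and 1326 to 1623 TPM in lumbar libraries and did not pass the test (adjusted p = 0.0757).

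Among the 11 genes of ventral progenitor domains, Nkx6-1 alone was called (against 1.16% of all genes called higher in lumbar cord). This homeodomain factor, which also stays on in some limb MNs, measured 2.69, 2.3 and 2.79 TPM in the brachial and 10, 4.93 and 5.53 TPM in the lumbar libraries (2.46-fold, adjusted p = 0.0402), with lumbar replicate 1 highest. It was lost without lumbar replicate 3 or any 1 brachial replicate. None of the 12 floor plate genes was called, with Shh at 5.07 to 7.28 TPM in brachial and 7.86 to 10.5 TPM in lumbar libraries (adjusted p = 0.109).

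**Figure D2:**
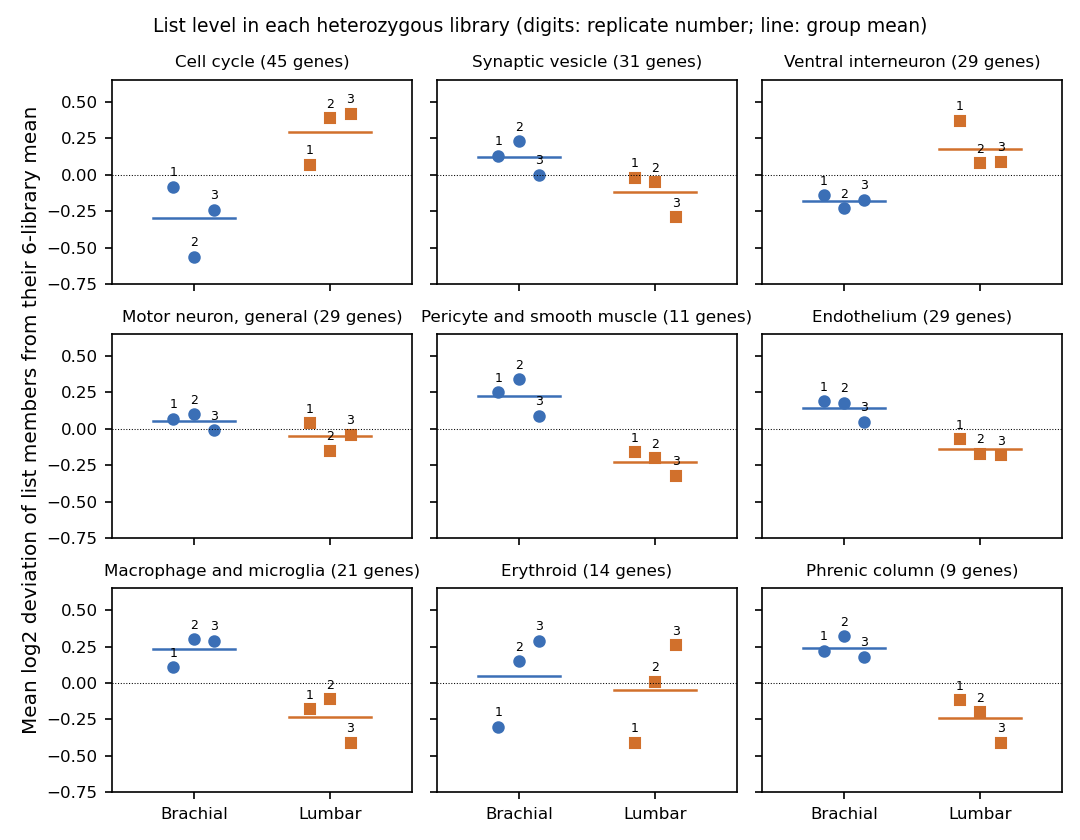
Mean log2 deviation of the tested members of 9 gene lists from their own 6-library mean, with 1 point per library (digits give the replicate number) and a line at the group mean. The groups are separate for cell cycle, ventral interneuron, endothelial, pericyte, macrophage, phrenic and synaptic vesicle genes, and overlap for the general MN and erythroid lists.

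Few genes that every neuron uses differed between the groups, and those that did were higher in brachial cord. Of the 30 pan-neuronal genes tested, none was called higher in lumbar and 2 were called higher in brachial cord (against 2.37% of all genes), with a median of -0.09. Tubb3, the neuronal tubulin, was at 2462 to 2913 TPM in brachial and 2541 to 2865 TPM in lumbar libraries, and the ranges of the RNA-binding protein Elavl4, at 192 to 215 and 204 to 210 TPM, overlapped as well. Nefh, the heavy neurofilament, which is the last neurofilament subunit to appear, measured 12.1, 13.2 and 10.1 TPM against 6.11, 4.9 and 4.4 TPM (2.28-fold, adjusted p = 0.00916). The light subunit Nefl was at 1250, 1281 and 1525 TPM against 1129, 1018 and 1443 TPM (adjusted p = 0.525). Nefh was lost without brachial replicate 2, and the list held 1 call when any other library was left out.

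Among 31 genes of the synaptic vesicle and its release machinery, 5 were higher in brachial cord (against 2.37% of all genes) and none in lumbar cord, with a median of -0.21, and the groups were separate with brachial above for 14 (against 13.3% of all genes). Syn2, a synapsin that tethers vesicles, measured 13.8, 17.7 and 14.9 TPM in the brachial and 7.1, 7.98 and 7.15 TPM in the lumbar libraries (2.07-fold, adjusted p = 0.0049). Syt4, a synaptotagmin, Snap25, a SNARE of vesicle fusion, and Rab3a, a vesicle GTPase, differed by 1.27- to 1.36-fold. Leaving out brachial replicate 1, 2 or 3 gave 3, 1 and 2 calls, and leaving out lumbar replicate 1, 2 or 3 gave 6, 2 and 2. The mean log2 deviation of the list was 0.13, 0.23 and -0.00 in brachial replicates 1 to 3 and -0.02, -0.05 and -0.29 in lumbar replicates 1 to 3, so brachial replicate 3 and lumbar replicate 1 nearly met.

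All called receptors for amino acid transmitters were higher in brachial cord. Of 22 glutamate receptor genes, 3 were higher in brachial cord (against 2.37% of all genes) and none in lumbar cord, with a median of -0.27. Grin1, the obligatory NMDA receptor subunit, measured 7.47, 8.28 and 6.57 TPM against 4.1, 3.82 and 3.6 TPM (1.91-fold, adjusted p = 0.0108), beside Gria4, an AMPA receptor subunit, and Grm7, a metabotropic receptor. Of 15 GABA and glycine receptor genes, 3 were higher in brachial cord, with a median of -0.21 and values below 0 for 14. Gabra5 measured 5.41, 6.93 and 5.97 TPM against 3.04, 3.17 and 3 TPM (1.95-fold, adjusted p = 0.0109), Gabrg1 differed by 2.27-fold, and Glra2, the fetal glycine receptor subunit, was the most abundant at 66.7 to 73.9 against 43.7 to 51.4 TPM. Neither receptor list held a call without brachial replicate 2, and the glutamate list held 1 without brachial replicate 3 or lumbar replicate 2 or 3.

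Of 52 potassium channel genes, Kcnab1 was higher in lumbar cord and 5 were higher in brachial cord (against 1.16% and 2.37% of all genes), with a median of -0.15. The 5 were the voltage-gated channels Kcnc2 (3.65 to 4.31 against 1.78 to 2 TPM, adjusted p = 0.0117) and Kcna4, the leak channel Kcnk1, the Kv4 partner Kcnip1, and Kcnj8, which is also on the pericyte list. The 30 sodium, calcium and HCN channel genes had a median of -0.12, with 1 called higher in brachial cord and none in lumbar cord. Of 15 cadherins, Cdh10, Cdh18, Cdh7 and Cdh13 were higher in brachial cord and none in lumbar cord, with a median of -0.34. The 53 clustered protocadherins held no call, with a median of -0.15. Without brachial replicate 2, Kcnab1 was the only call left in these 4 lists. The 5 brachial calls among potassium channels became 1, 0, 0, 4, 2 and 3, and the 4 among cadherins 3, 0, 1, 4, 2 and 1, without brachial replicate 1, 2, 3 and lumbar replicate 1, 2, 3.

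**Figure D3:**
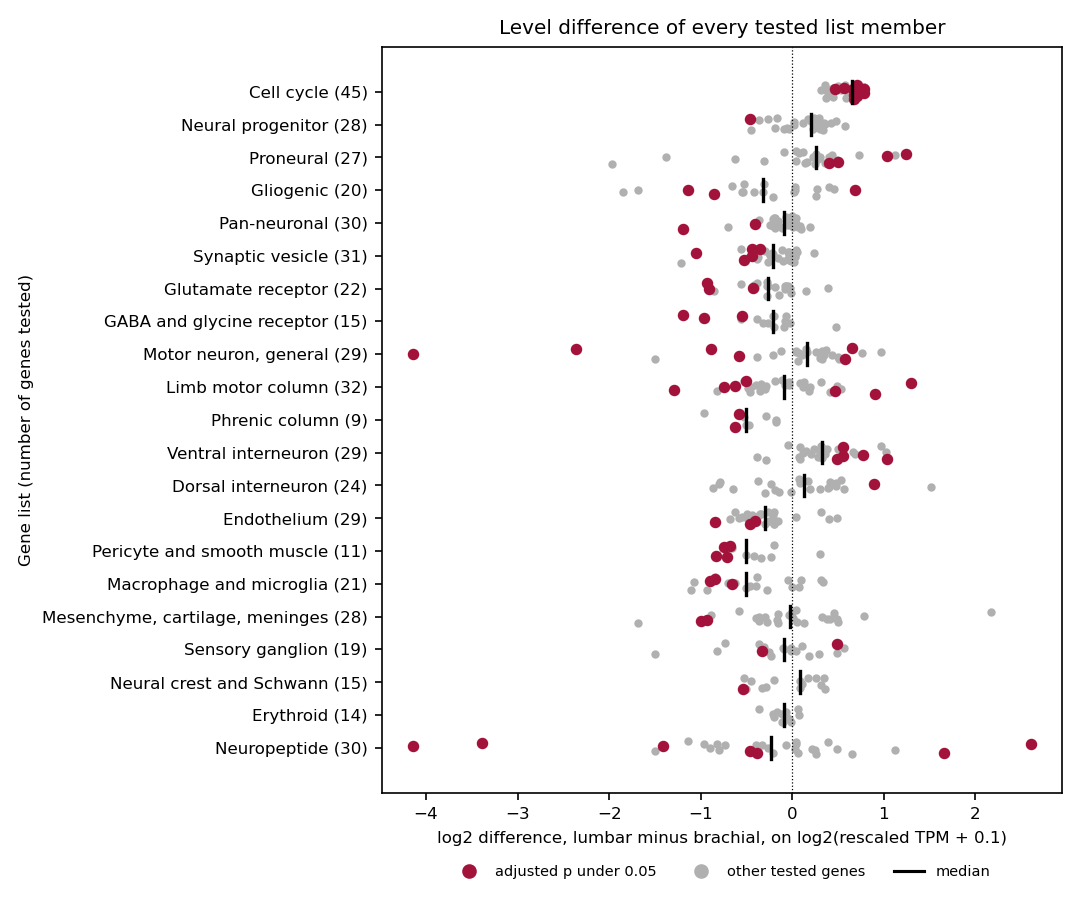
log2 difference (lumbar minus brachial) of every tested member of 21 gene lists, with called genes in red, other tested genes in grey and the list median as a line. Cell cycle genes lie wholly above 0 with a median of 0.65 and phrenic column genes wholly below 0.

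General MN genes held calls in both directions. Of the 29 tested, 2 were higher in lumbar cord and 4 in brachial cord (against 1.16% and 2.37% of all genes), and the median was 0.16. The defining genes were close between levels: Isl1 was at 52, 60.6 and 61.4 TPM against 62.9, 57.7 and 67.4 TPM, Chat, the enzyme of acetylcholine synthesis, at 7.38, 8.04 and 8.13 TPM against 10.1, 8.79 and 9.33 TPM, and Slc18a3, the vesicular acetylcholine transporter, at 19.7, 20 and 20.7 TPM against 27.4, 16.2 and 20 TPM, and none of them passed the test. Within the same cholinergic set, Slc5a7, the choline transporter that supplies acetylcholine synthesis, was higher in brachial cord, at 25.3, 28.2 and 27.8 TPM against 15.9, 12.7 and 15.2 TPM (1.85-fold, adjusted p = 0.00573). Calcb, which encodes the CGRP peptide of MNs, measured 2.51, 4.03 and 2.73 TPM in the brachial libraries and was listed at 0, 0.109 and 0.164 TPM in the lumbar ones (adjusted p = 0.00474), and no fold is given, since its size depends on the value added before the logarithm. Its neighbor Calca was at 3.31, 5.08 and 2.13 TPM against 0.714, 1.44 and 1.29 TPM and missed the threshold (adjusted p = 0.0645). The other calls on the brachial side were Prph and the adhesion molecule Alcam (56 to 63.9 against 37.6 to 44.3 TPM, adjusted p = 0.0132). Those on the lumbar side were Nrp1, a semaphorin receptor (51.9 to 54.1 against 68.6 to 86.7 TPM, adjusted p = 0.0192), and the early neuronal factor Onecut2 (5.45 to 7.77 against 10.5 to 11 TPM, adjusted p = 0.0485). Neither Nrp1 nor Onecut2 was called without brachial replicate 1, 2 or 3 or lumbar replicate 3, and Onecut2 was lost also without lumbar replicate 1 or 2. Prph, Calcb and Slc5a7 were called in all 6 such fits, and Alcam was lost without brachial replicate 2 or 3.

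Genes of the limb MN columns and pools held calls in both directions. Of the 32 tested, 3 were higher in lumbar cord (Epha3, Pou3f2 and Nkx6-1), 4 were higher in brachial cord (Cdh10, Etv4, Cdh7 and Chodl), against 1.16% and 2.37% of all genes, and the median was -0.10. Foxp1, the factor that defines the lateral column, was at 26.3, 26.6 and 25.4 TPM against 33.8, 25.6 and 30.6 TPM (adjusted p = 0.337), Lhx1, which marks its lateral division, at 6.88 to 11.1 against 9.07 to 13 TPM, and Aldh1a2, the retinoic acid enzyme of limb MNs, at 111 to 116 against 75.3 to 99.8 TPM (adjusted p = 0.0684). Etv4, an ETS factor that limb-derived GDNF switches on in certain pools, measured 29.1, 25.4 and 26.3 TPM in the brachial and 10.3, 8.48 and 15 TPM in the lumbar libraries (2.45-fold, adjusted p = 0.0139). Its relative Etv5 was at 5.62, 7.42 and 5.02 TPM against 4.12, 3.61 and 2.46 TPM (adjusted p = 0.0881), and Etv1 overlapped between groups. Epha3, an ephrin receptor, measured 30.5, 25.4 and 31 TPM against 46, 53.5 and 63.8 TPM (1.87-fold, adjusted p = 0.0132), whereas Epha4, its relative that guides lateral column axons, was at 104 to 110 against 97.7 to 111 TPM. Pou3f2, a POU factor, was 1.38-fold higher in lumbar cord, and Chodl, which marks fast MNs, 1.41-fold higher in brachial cord. Leaving out brachial replicate 2 removed all 7 calls, brachial replicate 3 left 1 in each direction, lumbar replicate 2 left 2 in each direction, and lumbar replicate 3 left 1 and 2.

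Of 12 genes of the axial column, Nr2f1 was higher in lumbar and Mecom in brachial cord (1.33- and 1.36-fold, against 1.16% and 2.37% of all genes called). Mecom was lost whichever library was left out and Nr2f1 in each such fit but that without lumbar replicate 1. Lhx3, the LIM factor that defines this column, was at 20.2, 18.5 and 21.9 TPM against 33.2, 21.7 and 32.2 TPM (adjusted p = 0.133). None of the 10 genes of the preganglionic column was called, with a median of 0.20. All 9 genes of the phrenic column, which forms at cervical levels next to the brachial cord, had log2 differences below 0, whereas 54.3% of all values were above 0. They ran from -0.96 to -0.18 with a median of -0.50, and 2 were called higher in brachial cord (against 2.37% of all genes). These were Cdh10 (21.1, 23.3 and 22 against 15.5, 13.2 and 14.1 TPM), also on the limb column list, and Alcam, also on the general MN list. The POU factor of the phrenic column, Pou3f1, was at 14.3 to 18.9 against 12.7 to 16.8 TPM (adjusted p = 0.326). Neither phrenic gene was called without brachial replicate 2.

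All calls among ventral interneuron genes were higher in lumbar cord. Of 29 tested, 5 were called higher in lumbar (against 1.16% of all genes) and none in brachial cord, 26 values were above 0 (against 54.3% of all values), and the median was 0.33. Shox2, expressed by rhythm-generating neurons, measured 20.5, 19 and 21.5 TPM in the brachial and 30.1, 26.7 and 28.6 TPM in the lumbar libraries (1.4-fold, adjusted p = 0.0205), with no overlap, and was lost without brachial replicate 1 or 2 or lumbar replicate 3. Pax8, a paired-domain factor of inhibitory interneurons, Prdm8, a transcriptional repressor, and Sox14, an interneuron transcription factor, differed by 1.47- to 1.7-fold. En1, which defines V1 inhibitory interneurons, was at 3.87, 3.44 and 4.36 TPM against 10.4, 5.52 and 9.04 TPM and missed the threshold (adjusted p = 0.0529). Evx1, of V0 neurons, and Gata3, of V2b neurons, were at 2.05 to 2.77 against 2.25 to 3.37 TPM and at 1.17 to 1.49 against 1.39 to 2.16 TPM. Leaving out brachial replicate 1, 2 or 3 gave 2, 1 and 2 calls, and leaving out lumbar replicate 1, 2 or 3 gave 3, 5 and 2.

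Of 24 dorsal interneuron genes, only Lhx9, of the dI1 commissural class, was called, higher in lumbar cord (against 1.16% of all genes). It measured 2.25, 2.31 and 2.14 against 4.61, 4.4 and 3.69 TPM (adjusted p = 0.0207), and was lost without lumbar replicate 1 or 2 or any 1 brachial replicate. Barhl1, of the same class, was at 4.68 to 5.88 against 1.94 to 3.67 TPM (adjusted p = 0.0828). Lbx1, which defines the late dorsal classes, was at 11.6 to 17.9 against 9.66 to 14.2 TPM, with brachial replicate 1 highest. The summed level of the whole dorsal list ranged from 131 to 184 TPM in brachial and from 120 to 178 TPM in lumbar libraries, so the groups overlapped.

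Neuropeptide genes held large differences in both directions. Of 30 tested, Cartpt and Uts2 were higher in lumbar cord and Grp, Calcb, Penk, Chgb and Nxph1 in brachial cord (against 1.16% and 2.37% of all genes). Penk, the enkephalin precursor, measured 4.38, 7.19 and 5.37 TPM against 2.42, 1.91 and 1.77 TPM (2.66-fold, adjusted p = 0.0153). Chgb, a granin of dense-core vesicles, and Nxph1, a secreted neuronal protein, differed by 1.37- and 1.31-fold. Sst, the precursor of somatostatin, was at 95.9, 104 and 84.4 TPM against 156, 124 and 122 TPM and missed the threshold (adjusted p = 0.0604), as did Tac1, the precursor of substance P, at 37.3, 36.5 and 37 TPM against 23.1, 29.5 and 16.2 TPM (adjusted p = 0.0788). Cartpt, Uts2, Grp and Calcb were called whichever library was left out, and Penk was lost without brachial replicate 2 or 3 or lumbar replicate 2. Among acetylcholine receptors, Chrna7 was higher in lumbar cord (1.67-fold, lumbar values 16.7 to 21.5 TPM, adjusted p = 0.0256) and the muscarinic Chrm2 in brachial cord (7.33 to 10.2 against 2.47 to 3.99 TPM, adjusted p = 0.011), the former lost without brachial replicate 1 or 2 or lumbar replicate 2 or 3 and the latter without brachial replicate 2.

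All calls among genes of vessels and macrophages, cells that enter the cord from outside, were higher in brachial cord. Of 29 endothelial genes, 3 were higher in brachial cord (against 2.37% of all genes) and none in lumbar cord, with a median of -0.30. Cldn5, the tight junction protein of the blood-brain barrier, measured 43.3, 40.9 and 43.4 TPM in the brachial and 22.5, 27.9 and 21.1 TPM in the lumbar libraries (1.8-fold, adjusted p = 0.00839), and was called whichever library was left out, whereas Egfl7 and Esam were each lost in 5 of the 6 such fits. The general endothelial genes Pecam1, at 10.2 to 12.1 against 9.51 to 10.1 TPM, and Kdr, at 12.6 to 13.6 against 9.61 to 10.8 TPM, did not pass the test (adjusted p of 0.267 and 0.0563). The embryos of the groups differed in sex, and with sex as a term the endothelial list held 1 call. The summed endothelial level was 238 to 260 TPM in brachial and 187 to 197 TPM in lumbar libraries, with no overlap.

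Pericyte and smooth muscle genes held 4 calls among 11, all higher in brachial cord (against 2.37% of all genes), with a median of -0.50. Rgs5, the leading pericyte marker, measured 26.5, 27.9 and 25.6 TPM against 15.8, 16.4 and 15.5 TPM (1.67-fold, adjusted p = 0.00228), beside the receptor Pdgfrb and the channel subunits Kcnj8 and Abcc9. Macrophage and microglia genes held 3 calls among 21, likewise against 2.37% of all genes, with a median of -0.51. Among them were the complement gene C1qc (5.83 to 6.7 against 3.3 to 3.39 TPM, 1.8-fold, adjusted p = 0.0109) and Csf1r, the receptor these cells need to survive (2.57, 3.29 and 3.55 against 1.68, 1.82 and 1.39 TPM, adjusted p = 0.0483). Rgs5 was called whichever library was left out. Without brachial replicate 2 it was the only call left in the pericyte list and none was left in the macrophage list, while Csf1r was lost whichever library was left out. The 4 pericyte calls became 1, 1, 2, 2, 1 and 2 and the 3 macrophage calls 3, 0, 1, 2, 3 and 3 without brachial replicate 1, 2, 3 and lumbar replicate 1, 2, 3. With embryo sex as a term the pericyte list held 2 calls and the macrophage list 1. The summed macrophage level was 120 to 129 TPM in brachial and 69.6 to 95.2 TPM in lumbar libraries.

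Markers of connective tissue and muscle that a dissection can carry over held 2 calls, both higher in brachial cord. Of 28 mesenchyme, cartilage and meninges genes tested, 2 were higher in brachial cord (against 2.37% of all genes) and none in lumbar cord. These were Lgals1 and the cartilage collagen Col9a3 (15.2, 14.8 and 12 against 7.54, 8.02 and 5.45 TPM, adjusted p = 0.0211), and the median of the list was -0.02. Col1a1, Twist1 and Prrx1, which define connective tissue and limb mesenchyme, stayed below 0.5 TPM in every library, and Col3a1 was at 4.84 to 5.54 against 4.64 to 5.93 TPM. The defining genes of skeletal muscle were at or near 0, with Myod1 at 0 in all 6 libraries and Myog above 0 in 2 of them, at 0.139 TPM or less. Only 4 of the 28 muscle genes passed the filter, and none was called.

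Most defining markers of sensory ganglia and nerve were low. Pou4f1, a POU factor of sensory neurons that dorsal interneurons also express, was at 15.8, 10.6 and 11.9 TPM in brachial and 13, 14.5 and 10.5 TPM in lumbar libraries. Scn10a, a sodium channel of nociceptors, was listed at 0 in all 6 libraries, Avil, an actin-binding protein of sensory neurons, stayed below 0.8 TPM, and Cdh19, a cadherin of Schwann cell precursors, at or below 0.056 TPM. Of 19 sensory list genes tested, Shox2, also an interneuron gene, was higher in lumbar cord and Ntrk2, the BDNF receptor, in brachial cord (against 1.16% and 2.37% of all genes). Ntrk2 was at 40.9 to 45.9 against 33.7 to 35.7 TPM, and the median of the list was -0.09. Of 15 crest and Schwann genes only Cnp, which oligodendrocyte precursors also express, was called, higher in brachial cord (against 2.37% of all genes). Cnp was at 13.7 to 15.9 TPM in brachial and 9.92 to 10.2 TPM in lumbar libraries (adjusted p = 0.0178), and it was lost without brachial or lumbar replicate 2 or 3. Sox10 was at 1.1, 1.63 and 0.783 TPM against 0.91, 0.913 and 0.0892 TPM, and the summed level of the list, to which genes shared with radial glia contribute, was 2185 to 2467 against 1592 to 1862 TPM. The part of such tissue in the differences above was not tested.

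Red cell genes varied within each group. None of the 14 erythroid genes was called, and the median was -0.08. Hbb-y, an embryonic globin, measured 1193, 1919 and 2258 TPM in brachial and 1210, 1972 and 2036 TPM in lumbar replicates 1, 2 and 3, so the spread within each group was larger than the difference between them. The summed erythroid level ran from 2514 to 4181 TPM and from 2482 to 3902 TPM.

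Signaling genes, which are grouped here by pathway, held 1 or 2 calls a list, against 1.16% of all genes called higher in lumbar and 2.37% in brachial cord. Of 17 genes of the Sonic hedgehog pathway, Scube3, which releases the ligand from cells, was higher in lumbar cord (12.2 to 13.6 against 18.6 to 23.2 TPM, adjusted p = 0.0205). The targets Ptch1, at 16.6 to 20.3 against 20 to 24.1 TPM, and Gli1, at 1.04 to 1.21 against 1.33 to 1.42 TPM, did not pass the test, and the median of the list was 0.28. Of 34 Wnt pathway genes, the receptor Ror2 was higher in lumbar cord (1.95, 1.78 and 1.92 against 3.52, 2.86 and 3.99 TPM, adjusted p = 0.0429) and the Dickkopf relative Dkk3 in brachial cord (20.4, 21.4 and 23.3 against 13.3, 14.7 and 15 TPM, adjusted p = 0.0128), with a median of 0.18. Of 25 FGF pathway genes, 2 were higher in brachial cord, Etv4, which is also a transcriptional target of FGF signaling, and Flrt3, a partner of FGF receptors (29.6 to 31.6 against 22.3 to 23.1 TPM, adjusted p = 0.0132), with a median of -0.21. Of 37 BMP and TGF-beta genes, 2 were higher in brachial cord, the follistatin relative Fstl5 (66.4, 70.2 and 68.7 against 42.3, 46.6 and 43.5 TPM, adjusted p = 0.00324) and the BMP inhibitor Nbl1 (4.52 to 6.47 against 1.02 to 2.42 TPM, adjusted p = 0.0305), with a median of 0.03. Fstl5 was called whichever library was left out. Scube3 was lost without brachial replicate 2 or 3, Dkk3 without brachial replicate 2, Flrt3 without brachial replicate 1 or 2, Nbl1 without any 1 brachial replicate, Etv4 without brachial replicate 2 or 3, and Ror2 whichever library was left out.

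Receptors for trophic factors held calls in both directions. Of 27 GDNF, neurotrophin and related genes, Met was higher in lumbar cord and Gfra4, Lifr and Ntrk2 in brachial cord (against 1.16% and 2.37% of all genes), with a median of 0.06. Gfra4, a co-receptor of the GDNF family, measured 6.23, 7.36 and 7.32 TPM against 3.85, 4.49 and 3.74 TPM (1.71-fold, adjusted p = 0.0207), and Lifr, the receptor for leukemia inhibitory factor and CNTF, 17.2 to 19.1 TPM against 11.1 to 13.1 TPM (adjusted p = 0.0214). The GDNF receptors Ret, at 13.1 to 17.5 against 18.8 to 26.3 TPM, and Gfra1, at 56.1 to 60.6 against 58.6 to 64.6 TPM, were not called. None of these 3 brachial calls was left without brachial replicate 2 or 3 or lumbar replicate 3.

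Guidance genes held at most 1 call a list in each direction, against 1.16% of all genes called higher in lumbar and 2.37% in brachial cord. With the gene higher in lumbar cord first, these were Epha3 and Ephb6 among 21 Eph and ephrin genes, Nrp1 and the repellent Sema3a (25.7 to 31 against 18.9 to 21.4 TPM, adjusted p = 0.0286) among 30 semaphorin and plexin genes, and Rgmb alone among 20 Slit and netrin family genes. The medians of these lists were 0.00, 0.02 and 0.08. Ephb6 was lost whichever library was left out, and Sema3a without brachial replicate 2 or 3 or any 1 lumbar replicate. Dll1 was the only call among 27 Notch genes and Nr2f1, a nuclear receptor, the only one among 19 retinoic acid genes, with medians of 0.08 and 0.07. Dll1 was lost whichever library was left out, and Nr2f1 in each such fit but that without lumbar replicate 1.

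All calls among genes of axial position and developmental timing were higher in lumbar cord. Of 21 tested, 6 were higher in lumbar cord (against 1.16% of all genes) and none in brachial cord, and the median was 0.41. Igf2bp1, Igf2bp2 and Igf2bp3, fetal RNA-binding proteins that decline as tissues mature and are targets of let-7 regulation, were all higher: Igf2bp1 at 9.09, 7.38 and 7.47 TPM against 13.6, 13.5 and 15.6 TPM (1.78-fold, adjusted p = 0.0109), Igf2bp2 1.46-fold and Igf2bp3 1.47-fold. All 3 were lost without brachial replicate 2, and the 6 calls of the list became 5, 2, 4, 7, 5 and 4 without brachial replicate 1, 2, 3 and lumbar replicate 1, 2, 3. Lin28b, which blocks let-7, was at 7.76 to 8.79 against 8.98 to 11 TPM (adjusted p = 0.276), and Gdf11, a signal of the trunk to tail transition, at 16.2 to 19.6 against 21.7 to 24.7 TPM (adjusted p = 0.073).

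The other members called were Nr2f1 and both loci of the miR-196a microRNA, which lie among the posterior genes of the Hoxb and Hoxc clusters. Mir196a-1 was listed at 0.021, 0 and 0 TPM in the brachial and 6.63, 5.18 and 4.79 TPM in the lumbar libraries, and Mir196a-2 at 0 in all 3 brachial and at 6.99, 5.48 and 4.52 TPM in the lumbar libraries (adjusted p = 0.000101 for each). No fold is given for them, since a whole group is at or next to 0. The libraries were made from total RNA and not as small RNA libraries, so these values are no measure of the mature microRNAs, and transcripts that overlap the hairpins may share their reads. Gm51876, a noncoding RNA that spans the Mir196a-1 hairpin, was at 4, 1.69 and 2.19 TPM in the brachial and 0, 0 and 0.606 TPM in the lumbar libraries (adjusted p = 0.045) and was lost without lumbar replicate 1 or 2 or any 1 brachial replicate. The mature sequences from RefSeq are printed because the seed (bases 2 to 8, in capitals) sets which transcripts a microRNA can pair with. Both loci yield the same 5p strand, and their 3p strands differ in seed.
miR-196a-5p (chr11:96265187-96265208 and chr15:102973365-102973386, GRCm38.p6, forward strand): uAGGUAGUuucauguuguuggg
miR-196a-1-3p (chr11:96265225-96265246, GRCm38.p6, forward strand): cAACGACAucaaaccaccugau
miR-196a-2-3p (chr15:102973401-102973422, GRCm38.p6, forward strand): uCGGCAACaagaaacugccuga

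Calls were frequent among genes that lie near the Hox clusters without being Hox genes. Within 200 kb of the 4 clusters, 43 such genes were tested and 17 were called (39.5%, against 3.30% of the other non-Hox genes), 7 higher in lumbar and 10 higher in brachial cord. Of the 23 within the clusters themselves, 13 were called. Most are noncoding RNAs: Hoxa11os, antisense at Hoxa11 (chr6:52245243-52249769), was listed at 0 in all brachial and at 15.8, 15.3 and 18.7 TPM in the lumbar libraries, and Gm53 (chr11:96251660-96264484), next to Mir196a-1, at 0, 0 and 0.316 TPM against 54.4, 59.1 and 64.1 TPM. Gm30528, in the anterior part of the Hoxc cluster, went the other way, at 17, 18.2 and 17.1 TPM against 3.05, 3.86 and 4.21 TPM (4.63-fold, adjusted p = 0.000178). Among the protein-coding neighbors Smug1, a uracil-DNA glycosylase that lies beyond the anterior end of the Hoxc cluster (chr15:103153290-103168939), was 2.06-fold higher in brachial cord, at 121, 118 and 150 TPM against 62.7, 58.9 and 66.3 TPM (adjusted p = 0.00306), and Igf2bp1 lies beside the Hoxb cluster. Smug1 was called whichever library was left out. These genes were picked out for their position after their values were known, and the overlapping and antisense transcripts of the clusters may share reads. The 11 TALE cofactors of Hox proteins held no call, with a median of 0.18. Of 10 genes of limb identity none was called, and Tbx4, Tbx5 and Pitx1 did not pass the filter.

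Lists that report on RNA content or dissection stress held 0 or 1 call each. Over all genes, 1.16% were called higher in lumbar and 2.37% in brachial cord. None of the 82 cytosolic ribosomal protein genes and none of the 15 mitochondrially encoded genes was called (medians 0.05 and -0.01). Of 19 immediate early and stress genes the heat shock gene Hspa1b was higher in brachial cord (3.94 to 4.51 against 2.04 to 2.48 TPM), of 25 hypoxia and glycolysis genes the glucose transporter Slc2a3 (24.8 to 28 against 15.6 to 16.6 TPM, adjusted p = 0.0038), and of 32 imprinted genes Grb10 was higher in lumbar and Snrpn in brachial cord. Of 134 small structural RNAs 1 was called, Snord35a, and their median was 0.22. Of 24 collagens, Col18a1 was higher in lumbar cord and Col9a3 and Col26a1 in brachial cord. Among these, Slc2a3 and Grb10 were called whichever library was left out, while Snrpn and Snord35a were lost in each such fit. Hspa1b was called only without lumbar replicate 1 among these fits. Col18a1 was lost without brachial replicate 2 or 3 or lumbar replicate 1 or 3, Col9a3 without brachial replicate 1 or 2, and Col26a1 without lumbar replicate 1 or 2 or any 1 brachial replicate.

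The same level difference was then measured in the 6 Isl2 KO libraries, over the same genes and with the same fit. There, 276 genes were called higher in lumbar cord (1.86%) and 280 higher in brachial cord (1.89%), and these numbers too depended on single libraries: the total was 950, 41 and 177 without brachial KO replicate 1, 2 and 3 and 216, 36 and 35 without lumbar KO replicate 1, 2 and 3. Of the 161 non-Hox genes higher in lumbar cord in heterozygotes, 157 had the same sign in the KO libraries and 43 were called there in the same direction (26.7%). Of the 343 higher in brachial cord, 340 had the same sign and 138 were called (40.2%). None was called in the opposite direction, and over all non-Hox genes tested 69.4% had the same sign in both genotypes. Cartpt differed by 2.07 on the log2 scale in the KO libraries (adjusted p = 0.0013), Prph by -2.88 (adjusted p = 3.96e-05), Grp by -4.22 (adjusted p = 0.00246), and Slc5a7 by -1.30 (adjusted p = 0.00276). Among the cell cycle genes all 45 differences were again above 0 and 27 were called, with a median of 0.91.

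List medians in the KO libraries had the same sign for some lists and the opposite sign for others. Calls there stand against 1.86% of all genes called higher in lumbar and 1.89% in brachial cord. Synaptic vesicle genes had a median of -0.51 with 9 of 31 called higher in brachial cord, pericyte genes one of -0.60 with 1 of 11 called, and macrophage genes one of -0.75 with 3 of 21 called. Ventral interneuron genes had a median of 0.13 with 1 called, general MN genes one of 0.07 with 4 called higher in brachial cord, and endothelial genes one of -0.24 with none called. Among the medians that turned, that of axial column genes went from 0.22 to -0.13, of Hox-cluster noncoding RNAs from 0.18 to -0.19, of Wnt genes from 0.18 to -0.02, of floor plate genes from 0.10 to -0.02, of Slit and netrin genes from 0.08 to -0.21, of crest genes from 0.08 to -0.13, of muscle genes from -0.07 to 0.09, of GDNF and neurotrophin genes from 0.06 to -0.20, and of semaphorin genes from 0.02 to -0.25. Kcnab1 differed between levels by 1.16 in heterozygotes and by 0.04 in the KO libraries, where it was at 7.51, 8.41 and 10.1 TPM in brachial and 8.35, 9.7 and 8.59 TPM in lumbar libraries. That difference between genotypes had the smallest p in the test for it (-1.12 ± 0.19 SE) and did not pass the correction in limma (adjusted p = 0.63). In that test across all 12 libraries no gene passed, and 672 genes, 4.54% of those tested, had an unadjusted p below 0.05.

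**Figure D4:**
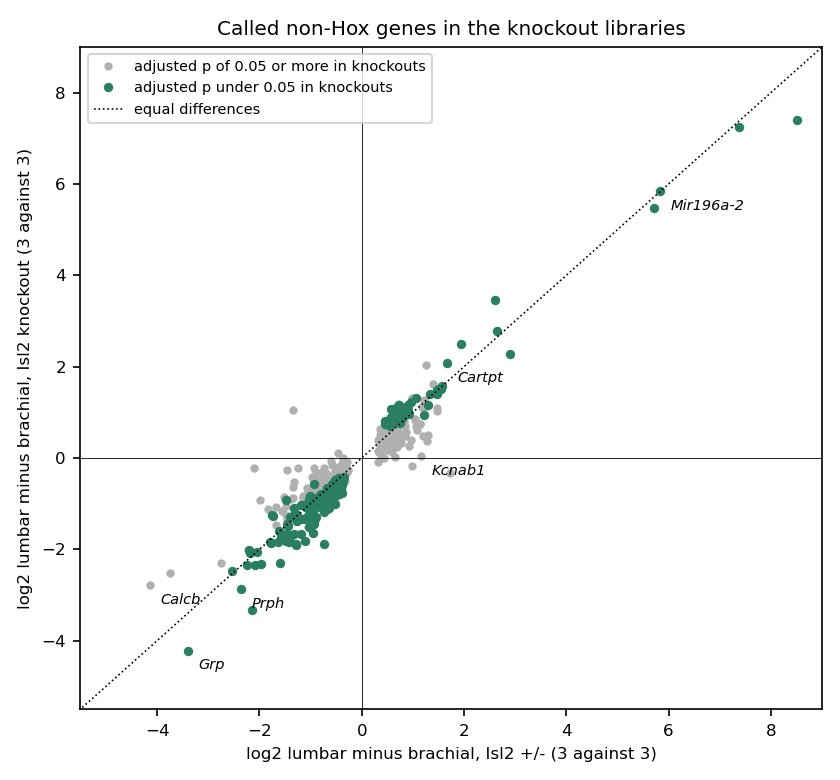
log2 level difference (lumbar minus brachial) of the 504 non-Hox genes called in heterozygotes (x axis) against the same difference in the 6 KO libraries (y axis), with those called in both in green. Most points follow the dotted line of equal differences, and Kcnab1 lies near 0 on the y axis (1.16 against 0.04).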

How the data were processed

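Ventral spinal cord RNA was sequenced by the authors as stranded total RNA after ribosomal depletion. Reads were trimmed with Trimmomatic, mapped to mm10 with HISAT2 and Bowtie2, and quantified per library with StringTie 2.1.3b. The TPM deposited by the authors scales each library to 1 total, and 5 small RNAs took 31.7% to 36.4% of it in the 6 heterozygote libraries. The deposited FPKM is a constant multiple of TPM within a library. The coverage deposited by the authors is the mean read depth per base, and its ratio to FPKM in single-transcript genes gave the aligned bases, since read counts were not analysed here. The authors' DESeq2 analysis needs counts and was not repeated.

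Symbols came from RefSeq GRCm38.p6 and matched 45679 of 45777 identifiers. TPM of at least 1 on average was rescaled by median-of-ratios, separately in the heterozygote and KO libraries, and log2(TPM + 0.1) entered a limma 3.58.1 fit (R 4.3.3, eBayes with a trend) with Benjamini-Hochberg adjustment. Fold changes are on the log2(TPM + 0.1) scale, which understates those of low genes. The fit was also run on simulated data with independent noise in each gene and library. Such data lack the differences between whole libraries seen here, and their outcome is not used. The methods of the study name 3 animals per genotype, and the labels give only a replicate number. Brachial and lumbar replicate 1 of the heterozygotes came from embryos of different sex, so p-values treat the libraries as separate samples. Replicates 2 and 3 may share an embryo between levels, which the main fit does not model.

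Named genes are the 10 non-Hox protein-coding genes of smallest p and the 5 of largest difference at 5 TPM or more on each side, and from each list its defining markers and then the called members of smallest p. Other members are named with their values as examples. The members and lists were chosen with earlier results of these data known. Alternatives were pseudocounts of 1 and 0.01, other filters, TPM as deposited, quantile normalization, no trend, a replicate block, all 12 libraries, coverage, protein-coding genes only, and leaving out each library. Embryo sex as a term was added after seeing the data. Some members of the lists are not reported here.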

Additional observations from a re-analysis of the deposited data

How the results depend on the processing

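The counts of genes called higher in lumbar (172) and in brachial cord (351) stayed within 1.5 times under both pseudocounts, filters of 0.5 and 5 TPM, quantile normalization, eBayes without a trend and coverage. They were 63 and 144 with no filter, 74 and 172 with TPM as deposited, which shifted the median of all genes to -0.04, 82 and 211 with all 12 libraries in one fit, and 93 and 181 with embryo sex as a term. With protein-coding genes only, 277 were higher in lumbar. Leaving out 1 library gave 35 to 167 and 51 to 314. Of the 504 called non-Hox genes, none reversed under an alternative in which it was tested (381 of them at a filter of 5 TPM). Of 122 called genes picked by the naming rule, 36 were still called without brachial replicate 2. Deviations of same-numbered brachial and lumbar libraries correlated at -0.040, 0.278 and 0.473. Replicates 2 and 3 correlated best with their own number and matched in sex within it. Brachial replicate 1 correlated best with lumbar replicate 2 (0.142), and lumbar replicate 1 with brachial replicate 2 (0.178). The numbers thus do not pair replicate 1, and whether numbers 2 and 3 each stand for the same embryo or batch was not tested. With the replicate number as a block 222 and 429 genes were called. In the KO libraries the block gave 27 and 21, and leaving out 1 library gave 15 to 606 and 17 to 344. The difference between genotypes gave 0 calls, and 0 to 1 without 1 library. Of the 10 lists run under every alternative, the medians held their sign except for mesenchyme, erythroid and crest genes. Among the other lists, medians that turned when 1 library was left out included those of dorsal interneuron (0.12 to -0.01), Slit and netrin (0.08 to -0.03), BMP (0.03 to -0.03), semaphorin (0.02 to -0.04), cholinergic (-0.03 to 0.05) and ribosomal protein genes (0.05 to -0.02). That of crest and Schwann genes (0.075) became -0.286 at a filter of 0.5 TPM, -0.245 at 5 TPM and -0.080 with no filter, and -0.240 to 0.134 without 1 library. The cause of these shifts was not tested. Values near the filter rest on few reads of unknown number, which limits low genes most.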

Other observations

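Replication-dependent histone genes, which were on none of the lists and were picked out after their values were seen, were measured because total RNA libraries include their transcripts without a poly(A) tail. All 61 tested had log2 differences above 0 in the heterozygotes (against 54.3% of all genes), with a median log2 difference of 0.54. None was called by limma, while 53 had an unadjusted p below 0.05, as did 20.2% of all genes tested. Their summed level was 20540, 13979 and 17999 TPM in brachial replicates 1, 2 and 3 and 20951, 27583 and 25460 TPM in lumbar replicates 1, 2 and 3, so brachial replicate 1 and lumbar replicate 1 were close, as for the cell cycle list. In the KO libraries the median was 1.03 and 51 of the 61 were called higher in lumbar cord (against 1.86% of all genes).

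Pkd2l1, the channel of neurons that contact the cerebrospinal fluid, was chosen after its values were seen. It measured 1.05, 0.254 and 0.392 TPM in the brachial and 3.14, 3.58 and 4.09 TPM in the lumbar libraries (log2 difference 2.65 ± 0.42 SE, limma adjusted p = 0.019), and differed by 2.78 in the KO libraries (adjusted p = 0.0105). It was lost without brachial or lumbar replicate 2 or 3.

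Mir5136 was also chosen after its values were seen. It was listed at 8.56, 8.15 and 10.1 TPM in the brachial and 0.0611, 0.0854 and 0.0635 TPM in the lumbar heterozygote libraries, but in the KO libraries at 9.51, 0.11 and 0.0782 TPM in brachial and 9.52, 0.0943 and 0.0993 TPM in lumbar replicates 1, 2 and 3. Its values were thus either high or near 0 in single libraries of both levels.

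With the Hox genes and everything within 200 kb of them left out, 6.9% of the 684 genes tested on chromosome 6 were called in heterozygotes, against 1.7% to 4.3% on the other chromosomes with 100 or more tested genes. In the KO libraries 4.4% of the same genes were called, and chromosome 13, which holds many histone genes, had the most, at 11.7%.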
